A study of Mus musculus with 18 samples.

Results

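The tumour necrosis factor (TNF) superfamily was followed in mouse kidneys whose ureter had been tied 3 days before (unilateral ureteral obstruction, UUO) and in kidneys of sham-operated mice. Members were all genes whose platform symbol began with Tnfrsf or Tnfsf and a number, together with Tnf, Lta, Ltb, Ltbr, Fas, Fasl, Cd40, Cd40lg, Cd27, Cd70, Ngfr, Eda and Edar. This gave 39 of the 12393 genes measured: 14 ligands, 7 receptors with an intracellular death domain, 3 decoy receptors and 15 other receptors. Tnfsf12 and Tnfsf13 shared their 2 probe sets with other symbols and are not among the 39. Where a gene had several probe sets, as 15 members did, the one with the highest mean log2 intensity over all arrays stood for it.

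TNF superfamily ligands are trimeric proteins, most of them anchored in the cell membrane, and they cluster their receptors on neighbouring cells. Death-domain receptors such as TNFR1 (Tnfrsf1a) and Fas recruit adaptors that lead to NF-κB activation or to caspase-driven or RIPK3-driven cell death. Receptors without a death domain, such as TNFR2 (Tnfrsf1b), bind TRAF proteins directly, and decoy receptors bind ligand and do not signal. The sheddase ADAM17 releases soluble TNF and also cleaves TNF receptors from the cell surface, and TIMP3 is its physiological inhibitor. In the obstructed kidney, TNF signalling is a well-known route of tubular cell death, leukocyte recruitment and interstitial fibrosis.

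The 6 groups of 3 arrays were TIMP2-/- UUO, TIMP3-/- UUO, WT UUO, TIMP2-/- sham, TIMP3-/- sham and WT sham, all from C57BL/6 mice. TIMP2 and TIMP3 are tissue inhibitors of metalloproteinases, and each knockout genotype is labelled as lacking 1 of them. For UUO the right ureter was tied off near the kidney, and sham mice of each genotype had the operation without the tie. Total RNA of the operated kidney was hybridised to an Affymetrix mouse array, and the labels call the samples biological replicates, so the p-values below measure the spread between these samples. An array is named by its group and replicate number. Levels are array intensities on a linear scale, and differences are log2 UUO minus sham or genotype minus genotype, ± the standard error (SE) of 1 limma fit over all 18 arrays. A gene was called at an adjusted p under 0.05, with Benjamini-Hochberg adjustment over all 12393 genes of the comparison. An intensity cannot be compared between probe sets, so no member's level is set against another's.

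The targeted genes checked the labels. Timp3 had 35.15, 40.52 and 35.14 in TIMP3-/- UUO and 60.81, 41.72 and 45.14 in TIMP3-/- sham kidneys, against 5274, 5056 and 4260 in WT UUO and 6198, 7263 and 9040 in WT sham kidneys. Timp2 had 832.3, 897.1 and 742.2 in TIMP2-/- UUO and 680.9, 570.8 and 667.6 in TIMP2-/- sham kidneys, against 4205, 4689 and 3521 in WT UUO and 1091, 1475 and 970.6 in WT sham kidneys. All TIMP2-/- values lay below the WT values of the same operation, by a difference of -2.32 after UUO (adjusted p = 1.2e-06) and of -0.86 ± 0.16 after sham, which did not pass (adjusted p = 0.131). The sources used here do not say where these probe sets lie relative to the deleted parts. The 7 measured tubule and podocyte markers summed to an intensity of 67024 to 79210 on the sham arrays, so kidney markers were present. There were 3 arrays that stood apart, and the calls lost without them are named below. On WT UUO 2 the albumin gene Alb, a liver marker, had 28106, while WT UUO 1 and 3 had 72.66 and 254.0. WT sham 3 and TIMP3-/- UUO 2 lay at 60 and 40.7 on the second principal component, with all other arrays between -33.3 and 22.3.

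Promoter sequences of the members are given first, since several members that rose lie next to members that did not. A RefSeq promoter window (assembly GRCm38.p6) was found for 31 of the 39 members, and the 250 bases upstream of the annotated start were searched on both strands. The motifs were the κB consensus bound by NF-κB proteins, the AP-1 motif TGANTCA and a TATA box. The last was searched as TATAAA, and no matches to different motifs overlapped in the windows printed. The κB consensus was found in 3 of 31 members (Ltb, Tnfrsf8 and Tnfrsf9), against 4.46% of all genes with a window. The AP-1 motif was found in 5 members and 7.82% of all genes, and the TATA box in 5 members and 14.3% of all genes. These counts describe letters in a short window and say nothing of binding in these kidneys.

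Ltb and Tnf are direct neighbours on chromosome 17, and Tnfrsf12a and Tnfrsf9 are shown as the receptor with the largest WT rise and a receptor that was called in no comparison. The capitals mark matches to the 3 motifs. The Ltb window is chr17:35194257-35194506 (plus strand), the Tnf window chr17:35202008-35202257 (minus strand), the Tnfrsf12a window chr17:23677450-23677699 (minus strand), and the Tnfrsf9 window chr4:150927749-150927998 (plus strand, the downstream of its 2 annotated starts).
Ltb: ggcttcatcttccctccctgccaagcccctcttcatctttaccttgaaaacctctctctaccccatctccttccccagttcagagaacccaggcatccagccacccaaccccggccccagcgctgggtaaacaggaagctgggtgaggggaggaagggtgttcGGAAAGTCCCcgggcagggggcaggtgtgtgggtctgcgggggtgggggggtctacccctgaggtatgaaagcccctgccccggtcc
Tnf: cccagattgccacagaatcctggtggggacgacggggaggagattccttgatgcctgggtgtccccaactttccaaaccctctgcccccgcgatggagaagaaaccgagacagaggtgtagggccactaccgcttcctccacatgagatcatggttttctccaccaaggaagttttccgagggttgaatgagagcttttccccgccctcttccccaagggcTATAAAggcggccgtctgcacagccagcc
Tnfrsf12a: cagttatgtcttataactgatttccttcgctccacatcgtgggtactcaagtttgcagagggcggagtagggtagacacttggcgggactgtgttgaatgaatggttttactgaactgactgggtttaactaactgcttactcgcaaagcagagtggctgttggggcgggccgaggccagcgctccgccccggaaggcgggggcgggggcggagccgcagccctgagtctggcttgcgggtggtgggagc
Tnfrsf9: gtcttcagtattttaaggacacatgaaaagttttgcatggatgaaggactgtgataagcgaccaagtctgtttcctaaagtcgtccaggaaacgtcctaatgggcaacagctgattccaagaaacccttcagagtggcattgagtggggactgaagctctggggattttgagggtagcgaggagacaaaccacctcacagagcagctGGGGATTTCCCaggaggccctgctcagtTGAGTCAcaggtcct
The Ltb match GGAAAGTCCC lay 78 to 87 bases upstream of the start. Tnf held a TATA box match and no κB match in this window, and Tnfrsf12a held none of the 3 motifs. The window shown for Tnfrsf9 held 2 overlapping κB matches at 33 to 43 bases upstream and an AP-1 match, while the window of its other annotated start held no match to the 3 motifs. Its values did not pass between UUO and sham in any genotype.

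Across the 39 genes, obstruction moved members in both directions, as it did the genes at large. In TIMP2-/- kidneys 9 members rose and 7 fell, a total of 16 (41.0% of members), against 37.9% of all genes called in that comparison (15.9% higher and 22.0% lower). TIMP3-/- kidneys had 9 members that rose and 10 that fell, a total of 19 (48.7%), against 64.6% of all genes (25.7% higher and 38.8% lower). WT kidneys had 9 that rose and 6 that fell, a total of 15 (38.5%), against 33.0% of all genes (16.8% higher and 16.2% lower). With the values as deposited, the members' share was thus near the background in TIMP2-/- and WT kidneys and below it in TIMP3-/- kidneys. In TIMP3-/- kidneys the share of members that rose lay near that of all genes, and the share that fell lay below it. The median log2 difference of the members was -0.10 in TIMP2-/-, -0.16 in TIMP3-/- and -0.07 in WT kidneys, beside -0.12, -0.19 and -0.09 over all genes. The numbers higher and lower depend on the scaling, for the members as for all genes. With each array centred on its median, which moved the median of all genes to -0.27, -0.42 and -0.22, the members had 7 higher and 10 lower in TIMP2-/-, 7 and 18 in TIMP3-/-, and 8 and 7 in WT kidneys. Of all 12393 genes, 1532 were then higher and 3990 lower in TIMP2-/-, 2436 and 6256 in TIMP3-/-, and 1678 and 2916 in WT kidneys. With quantile normalization repeated the members had 10 and 3, 9 and 6, and 8 and 3 in the same genotypes. All genes then had 1756 and 2652, 2918 and 4630, and 1960 and 1930.

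**Figure D1:**
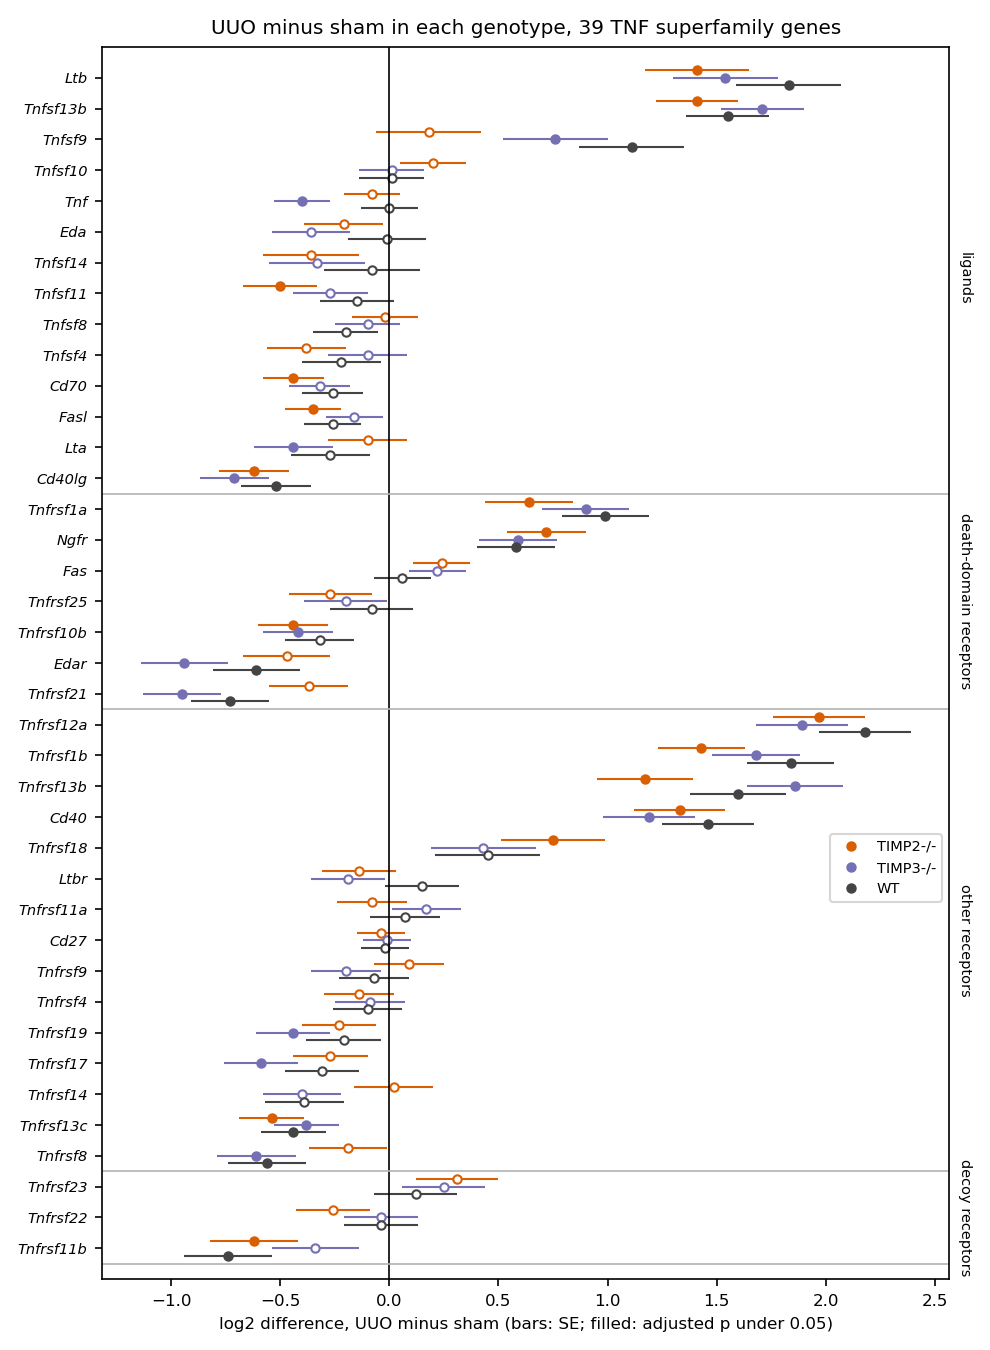
Log2 difference (UUO minus sham, x axis) of each of the 39 genes in TIMP2-/-, TIMP3-/- and WT kidneys, with SE bars, grouped by role and ordered within a role by the WT value; filled points passed at an adjusted p under 0.05. Tnfrsf12a, Tnfrsf1b, Ltb, Tnfrsf13b, Tnfsf13b and Cd40 stand above 1 in every genotype, while the 11 ligands other than Ltb, Tnfsf13b and Tnfsf9 lie between -0.71 and 0.20.

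The same 8 genes rose in all 3 genotypes: the ligands Ltb and Tnfsf13b, the death-domain receptors Tnfrsf1a and Ngfr, and the receptors Tnfrsf12a, Tnfrsf1b, Tnfrsf13b and Cd40. Tnfsf9 rose as well in TIMP3-/- and WT kidneys, and Tnfrsf18 in TIMP2-/- kidneys. Only Cd40lg and Tnfrsf13c fell in all 3 genotypes, and 14 members fell in at least 1. The matching counts over all genes are not given here, so these numbers are not set against a background. A gene is called dim here where its mean log2 intensity over all arrays lay below the lowest 25th percentile of the arrays (an intensity of 56.9), and 6 of 7 falls in TIMP2-/-, 4 of 10 in TIMP3-/- and 2 of 6 in WT kidneys were of dim genes. A rise lifts that mean, so this measure does not compare rises with falls: the WT sham values of Tnfrsf13b and Tnfsf9 all lay below 56.9 although neither gene is dim by it. Without the 3 arrays that stood apart, 9 rose and 7 fell in TIMP2-/-, 10 rose and 5 fell in TIMP3-/-, and 8 rose and 2 fell in WT kidneys. The calls lost were Tnf, Lta, Tnfrsf10b, Tnfrsf13c and Tnfrsf19 in TIMP3-/- and Ngfr, Edar, Cd40lg, Tnfrsf13c and Tnfrsf8 in WT kidneys, and Tnfrsf18 was gained in TIMP3-/- kidneys. The TIMP2-/- count of 16 was 9 without TIMP2-/- UUO 1 and 8 without TIMP2-/- UUO 2. The share of all genes called with fewer arrays is not given here. These changes in number therefore cannot be read as particular to the members.

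Among the ligands, 2 rose in every genotype. Ltb encodes lymphotoxin β, which anchors lymphotoxin α in the membrane as the ligand of Ltbr. It had 366.9, 400.6 and 448.7 in TIMP2-/- UUO kidneys, against 127.3, 163.7 and 168.3 in TIMP2-/- sham kidneys. The TIMP3-/- UUO arrays had 602.5, 339.7 and 595.9, against 138.3, 185.3 and 193.5 on the TIMP3-/- sham arrays. WT UUO arrays had 463.6, 429.0 and 289.3, against 136.8, 98.6 and 94.8 on WT sham arrays. Every UUO array lay above every sham array of any genotype. The differences were 1.41 ± 0.24 in TIMP2-/-, 1.54 ± 0.24 in TIMP3-/- and 1.83 ± 0.24 in WT kidneys (limma, adjusted p = 0.000545, 8.47e-05 and 4.08e-05), which are 2.66-fold, 2.91-fold and 3.56-fold.

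Tnfsf13b encodes BAFF, a survival factor of B cells made largely by myeloid and stromal cells. Its intensities were 223.1, 302.9 and 223.4 in TIMP2-/- UUO kidneys, against 100.2, 77.4 and 103.9 in TIMP2-/- sham kidneys. They were 344.9, 346.8 and 401.4 in TIMP3-/- UUO kidneys, against 97.6, 110.5 and 127.2 in TIMP3-/- sham kidneys. In WT UUO kidneys they were 364.7, 303.5 and 240.7, against 85.8, 121.1 and 102.2 in WT sham kidneys. The groups did not overlap in any genotype, and the rises were 1.41 ± 0.19, 1.71 ± 0.19 and 1.55 ± 0.19 in TIMP2-/-, TIMP3-/- and WT kidneys (limma, adjusted p = 6.53e-05, 4.49e-06 and 1.89e-05).

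Tnfsf9 encodes the costimulatory ligand of Tnfrsf9. It had 109.7, 83.8 and 85.6 in TIMP2-/- UUO kidneys, against 61.7, 92.3 and 94.5 in TIMP2-/- sham kidneys, and these groups overlapped (difference 0.18 ± 0.24, adjusted p = 0.549). In TIMP3-/- kidneys it had 117.0, 85.6 and 113.2 after UUO, against 93.2, 49.2 and 50.9 after sham. The first sham array lay above the second UUO array, and the rise was 0.76 ± 0.24 (adjusted p = 0.0114). It did not pass without TIMP3-/- sham 2 or without TIMP3-/- sham 3. WT kidneys had 91.4, 114.7 and 119.6 after UUO, against 44.7, 54.9 and 51.1 after sham, a rise of 1.11 ± 0.24 with no overlap (adjusted p = 0.00222). The difference between the TIMP2-/- and WT responses was -0.92 (95% interval -1.63 to -0.21), with an adjusted p of 0.518, and was not called.

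Tnf, the founding ligand, did not rise at the transcript level. It had 128.8, 133.7 and 167.9 in TIMP2-/- UUO kidneys, against 144.8, 142.1 and 166.1 in TIMP2-/- sham kidneys. TIMP3-/- UUO kidneys had 122.5, 108.6 and 127.7, against 139.7, 168.3 and 166.7 in TIMP3-/- sham kidneys, and all 3 UUO arrays lay below the sham arrays. In WT kidneys it had 126.7, 130.4 and 132.7 after UUO, against 121.7, 128.6 and 140.0 after sham. The differences were -0.08 ± 0.13, -0.40 ± 0.13 and 0.00 ± 0.13 in TIMP2-/-, TIMP3-/- and WT kidneys (adjusted p = 0.625, 0.0121 and 0.999), with 95% intervals of -0.35 to 0.19 in TIMP2-/- and -0.27 to 0.27 in WT kidneys. Tnf thus fell in TIMP3-/- kidneys, and that call was lost without TIMP3-/- UUO 2 and without the 3 arrays that stood apart. The difference of the TIMP3-/- from the WT response was -0.40 (-0.78 to -0.02, adjusted p = 0.175).

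Of the other ligands, Cd40lg, the ligand of Cd40 on activated T helper cells, fell in every genotype. Its intensities were 67.0, 51.2 and 84.2 in TIMP2-/- UUO kidneys, against 96.4, 97.8 and 111.7 in TIMP2-/- sham kidneys. They were 51.8, 53.7 and 65.1 in TIMP3-/- UUO kidneys, against 85.2, 85.3 and 109.4 in TIMP3-/- sham kidneys, and 66.6, 61.2 and 62.8 in WT UUO kidneys, against 94.3, 82.7 and 96.3 in WT sham kidneys. The UUO and sham values did not overlap within any genotype, with differences of -0.62 ± 0.16, -0.71 ± 0.16 and -0.52 ± 0.16 (adjusted p = 0.00953, 0.00188 and 0.0249). In WT kidneys the call was lost without WT UUO 2, WT sham 1 or WT sham 3 and without the 3 arrays that stood apart (-0.45, adjusted p = 0.165), and in TIMP2-/- kidneys without TIMP2-/- UUO 2. Cd70 (-0.44), Tnfsf11 (-0.50) and Fasl (-0.35) passed as lower in TIMP2-/- kidneys, and Lta (-0.44) passed as lower in TIMP3-/- kidneys. These 4 were dim genes, and each call was lost when 1 of several arrays was left out, 4 arrays for Cd70 and Tnfsf11 and 5 for Fasl and Lta. Eda, Tnfsf4, Tnfsf8, Tnfsf10, which encodes the death ligand TRAIL, and Tnfsf14 passed in no genotype. For Eda, a ligand of ectodermal development, this holds for the brightest of 5 probe sets, while the other 4 passed as lower in TIMP2-/- and TIMP3-/- kidneys and 1 of them in WT kidneys.

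**Figure D2:**
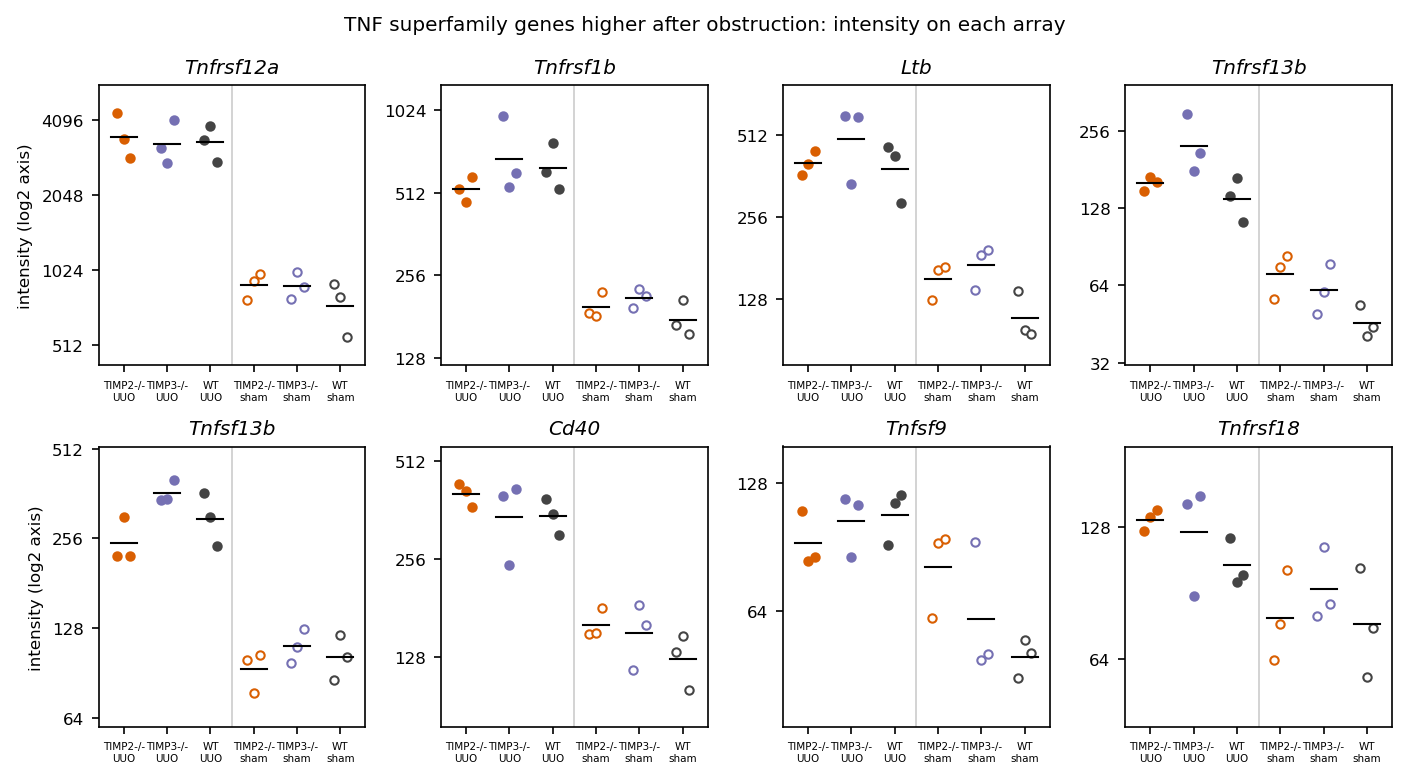
Intensity on each array (log2-scaled y axis) of 8 genes, by group; filled points are UUO, open points sham, and bars the group means of log2 intensity. For Tnfrsf12a, Tnfrsf1b, Ltb, Tnfrsf13b, Tnfsf13b and Cd40 the lowest UUO array lies above the highest sham array, while Tnfsf9 overlaps in TIMP2-/- and TIMP3-/- kidneys and Tnfrsf18 in TIMP3-/- and WT kidneys.

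The 7 death-domain receptors went different ways. Tnfrsf1a, which encodes TNFR1, the main receptor of soluble TNF, had 2978, 2586 and 2711 in TIMP2-/- UUO kidneys, against 1642, 1707 and 1954 in TIMP2-/- sham kidneys. It had 3453, 2434 and 3142 in TIMP3-/- UUO kidneys, against 1418, 1794 and 1609 in TIMP3-/- sham kidneys. It had 2936, 3457 and 2662 in WT UUO kidneys, against 1547, 2040 and 1084 in WT sham kidneys. All UUO arrays lay above all sham arrays. The rises were 0.64 ± 0.20, 0.90 ± 0.20 and 0.99 ± 0.20 in TIMP2-/-, TIMP3-/- and WT kidneys (adjusted p = 0.0198, 0.00131 and 0.00132). In TIMP2-/- kidneys the call was lost without TIMP2-/- UUO 1, TIMP2-/- sham 1 or TIMP2-/- sham 2 and with the arrays centred on their medians.

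Ngfr, the low-affinity neurotrophin receptor, had 391.3, 319.5 and 392.6 in TIMP2-/- UUO kidneys, against 231.2, 198.6 and 239.1 in TIMP2-/- sham kidneys. It had 388.8, 249.9 and 332.9 in TIMP3-/- UUO kidneys, against 194.4, 243.2 and 198.7 in TIMP3-/- sham kidneys, and 271.4, 313.6 and 241.8 in WT UUO kidneys, against 222.9, 181.8 and 153.2 in WT sham kidneys. The groups did not overlap, and the rises were 0.72 ± 0.18, 0.59 ± 0.18 and 0.58 ± 0.18 (adjusted p = 0.00694, 0.00983 and 0.0225). In TIMP3-/- kidneys the call was lost without TIMP3-/- UUO 1, and in WT kidneys without WT UUO 1, WT UUO 2, WT sham 2 or WT sham 3 and without the 3 arrays that stood apart (0.35, adjusted p = 0.178). All 3 rest on the brightest of 3 probe sets. Both dimmer probe sets went the other way in every genotype and passed as lower in TIMP3-/- kidneys (-0.63 and -0.76), and with the mean of the 3 the difference was 0.01 in TIMP2-/-, -0.26 in TIMP3-/- and 0.06 in WT kidneys, and no call was made.

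Tnfrsf21, a death receptor that also acts in neurons and lymphocytes, had 2477, 2413 and 2503 in TIMP2-/- UUO kidneys, against 3418, 3067 and 3051 in TIMP2-/- sham kidneys. It had 1583, 2117 and 2560 in TIMP3-/- UUO kidneys, against 4343, 3548 and 4020 in TIMP3-/- sham kidneys. It had 2939, 1967 and 2545 in WT UUO kidneys, against 4738, 3875 and 3638 in WT sham kidneys. UUO arrays lay below the sham arrays of their genotype throughout. The TIMP2-/- difference of -0.37 ± 0.18 did not pass (adjusted p = 0.109), and Tnfrsf21 fell by 0.95 ± 0.18 in TIMP3-/- and by 0.73 ± 0.18 in WT kidneys (adjusted p = 0.000355 and 0.00516). The TIMP2-/- fall passed with only the arrays compared in the fit (-0.37, adjusted p = 0.0284) and with arrays centred on their medians (-0.51, 0.0379). A test of the TIMP2-/- against the TIMP3-/- response gave 0.59 (0.06 to 1.11, adjusted p = 0.421).

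Edar, the receptor of ectodysplasin in skin appendages and epithelia, had 60.9, 57.3 and 77.2 in TIMP2-/- UUO kidneys, against 76.6, 92.8 and 100 in TIMP2-/- sham kidneys. TIMP3-/- UUO kidneys had 53.9, 48.8 and 62.0, against 77.2, 124.3 and 120.8 in TIMP3-/- sham kidneys, and WT UUO kidneys had 62.1, 52.7 and 76.8, against 110.2, 93.0 and 86.4 in WT sham kidneys. The TIMP2-/- groups overlapped and the others did not. The TIMP2-/- difference of -0.47 ± 0.20 did not pass (adjusted p = 0.0741), and Edar fell by 0.94 ± 0.20 in TIMP3-/- and by 0.61 ± 0.20 in WT kidneys (adjusted p = 0.000956 and 0.0286). The TIMP2-/- fall passed without TIMP2-/- UUO 3 (-0.60, adjusted p = 0.037) and with arrays centred on their medians (-0.61, 0.0378). The WT call was lost without WT UUO 1, WT UUO 2, WT sham 1 or WT sham 2 and without the 3 arrays that stood apart (-0.55, adjusted p = 0.124).

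Fas, which triggers apoptosis when bound by Fas ligand, passed in no genotype with all arrays, and in TIMP3-/- kidneys without TIMP3-/- UUO 3 (0.34, adjusted p = 0.0355). It had 170.0, 184.0 and 160.6 in TIMP2-/- UUO kidneys, against 136.5, 144.7 and 155.6 in TIMP2-/- sham kidneys, a difference of 0.24 (95% interval -0.04 to 0.51). It had 188.9, 200.6 and 153.2 in TIMP3-/- UUO kidneys, against 151.0, 157.9 and 152.8 in TIMP3-/- sham kidneys, a difference of 0.22 (-0.05 to 0.50). In WT kidneys it had 160.5, 162.8 and 136.7 after UUO, against 157.4, 160.2 and 125.3 after sham, a difference of 0.06 (-0.22 to 0.34). The groups overlapped in TIMP3-/- and WT kidneys and not in TIMP2-/- kidneys.

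Tnfrsf10b, the mouse death receptor for TRAIL, was dim. It had 41.8, 45.0 and 53.5 in TIMP2-/- UUO kidneys, against 66.8, 54.7 and 68.7 in TIMP2-/- sham kidneys, and 36.7, 38.4 and 46.9 in TIMP3-/- UUO kidneys, against 45.4, 68.1 and 51.0 in TIMP3-/- sham kidneys. In WT UUO kidneys it had 43.9, 37.4 and 37.4, against 47.4, 52.1 and 48.7 in WT sham kidneys. It fell by 0.44 ± 0.16 in TIMP2-/- and by 0.42 ± 0.16 in TIMP3-/- kidneys, where the groups overlapped (adjusted p = 0.0407 and 0.0313), and the WT difference was -0.32 ± 0.16 (adjusted p = 0.13). Both calls were lost when 1 of several arrays was left out (4 arrays in TIMP2-/- and 3 in TIMP3-/- kidneys). Tnfrsf25, a costimulatory death-domain receptor of T cells, ranged from 44.7 to 81.0 over the 18 arrays and did not pass (-0.27, -0.20 and -0.08 in TIMP2-/-, TIMP3-/- and WT kidneys). Without TIMP2-/- sham 1 the TIMP2-/- difference of Tnfrsf25 was -0.51 and passed (adjusted p = 0.0323).

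**Figure D3:**
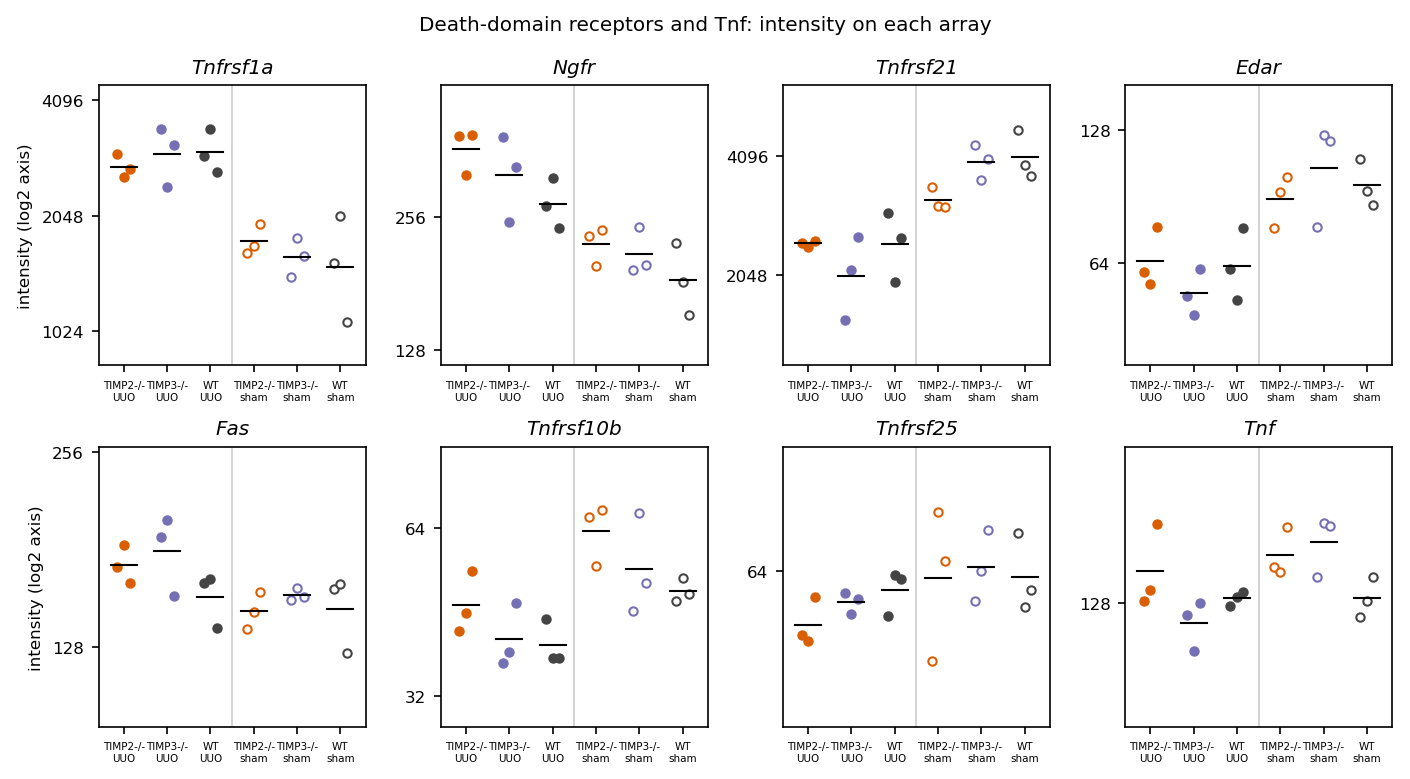
Intensity on each array (log2-scaled y axis) of the 7 death-domain receptors and Tnf, by group; filled points are UUO, open points sham, and bars the group means of log2 intensity. Tnfrsf1a and Ngfr lie higher and Tnfrsf21 lower on the UUO arrays of each genotype, and Tnf stays between 108.6 and 168.3 on all 18 arrays.

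The receptors without a death domain held the largest rises. Tnfrsf12a encodes Fn14, a small receptor for the ligand TWEAK that is induced in injured epithelium and vessels. It had 4335, 3422 and 2885 in TIMP2-/- UUO kidneys, against 777.7, 923.4 and 987.7 in TIMP2-/- sham kidneys. It had 3155, 2752 and 4071 in TIMP3-/- UUO kidneys, against 786.0, 1005 and 875.7 in TIMP3-/- sham kidneys. WT UUO kidneys had 3403, 3874 and 2777, against 897.8, 796.9 and 552.4 in WT sham kidneys. The lowest UUO array lay well above the highest sham array. The rises were 1.97 ± 0.21, 1.89 ± 0.21 and 2.18 ± 0.21 (3.92-fold, 3.71-fold and 4.52-fold, limma, adjusted p = 8.91e-06, 4.86e-06 and 2.15e-06). A second probe set gave 2.12, 2.08 and 2.29 in TIMP2-/-, TIMP3-/- and WT kidneys.

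Tnfrsf1b encodes TNFR2, the receptor of membrane TNF found on leukocytes, endothelium and injured tubules. It had 528.5, 474.4 and 584.0 in TIMP2-/- UUO kidneys, against 185.5, 181.9 and 222.3 in TIMP2-/- sham kidneys. It had 972.2, 536.9 and 601.8 in TIMP3-/- UUO kidneys, against 194.1, 227.0 and 215.5 in TIMP3-/- sham kidneys. WT UUO kidneys had 609.5, 779.2 and 527.3, against 168.9, 208.0 and 155.8 in WT sham kidneys. Again no sham array reached a UUO array, and the highest value was on TIMP3-/- UUO 1. The rises were 1.43 ± 0.20, 1.68 ± 0.20 and 1.84 ± 0.20 (adjusted p = 0.00012, 9.37e-06 and 8.1e-06). The dimmer of the 2 probe sets went the other way, at -0.41, -0.55 and -0.34, and passed as lower in TIMP3-/- kidneys (adjusted p = 0.0105).

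**Figure D4:**
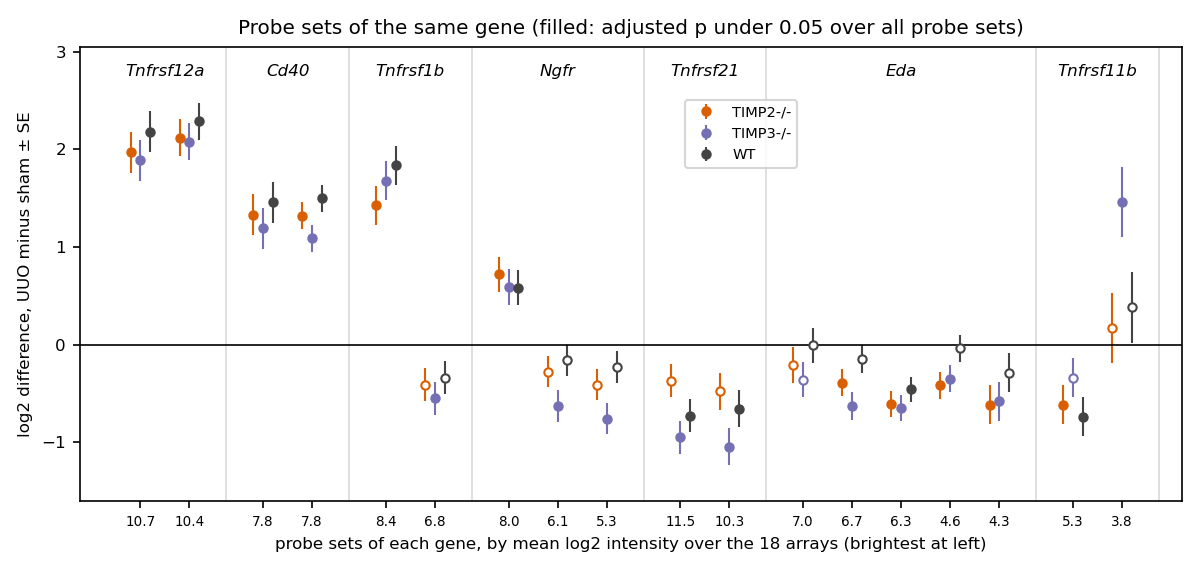
Log2 difference (UUO minus sham ± SE, y axis) of every probe set of 7 members in TIMP2-/-, TIMP3-/- and WT kidneys, ordered by brightness within a gene, with the mean log2 intensity on the x axis; filled points passed at an adjusted p under 0.05 over all 22626 probe sets. Both probe sets of Tnfrsf12a, Cd40 and Tnfrsf21 lie on the same side of 0, while the dimmer ones of Tnfrsf1b and Ngfr lie below 0.

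The receptors of BAFF split. Tnfrsf13b encodes TACI and had 149.7, 169.4 and 161.3 in TIMP2-/- UUO kidneys, against 56.7, 75.8 and 83.1 in TIMP2-/- sham kidneys. It had 296.0, 177.5 and 209.1 in TIMP3-/- UUO kidneys, against 49.4, 60.4 and 77.7 in TIMP3-/- sham kidneys. WT UUO kidneys had 142.0, 167.7 and 112.6, against 53.9, 40.7 and 44.0 in WT sham kidneys. All UUO arrays lay above all sham arrays, and all 3 WT sham values lay below 56.9. The rises were 1.17 ± 0.22, 1.86 ± 0.22 and 1.60 ± 0.22 (adjusted p = 0.00109, 7.63e-06 and 5.85e-05). Tnfrsf13c, the BAFF receptor proper of B cells, instead passed as lower in all 3 genotypes (-0.54 ± 0.15, -0.38 ± 0.15 and -0.44 ± 0.15), between 30.1 and 60.0 on the 18 arrays and thus dim. Those calls were lost when 1 of several arrays was left out (2 arrays in TIMP2-/-, 4 in TIMP3-/- and 3 in WT kidneys). Tnfrsf17, the plasma cell receptor BCMA, passed as lower in TIMP3-/- kidneys, with differences of -0.27 ± 0.17, -0.59 ± 0.17 and -0.31 ± 0.17 in TIMP2-/-, TIMP3-/- and WT kidneys. Tnfrsf17 was dim as well, between 25.8 and 56.2 on the 18 arrays. The responses were not called different between genotypes for either gene.

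Cd40, the costimulatory receptor of antigen-presenting cells, had 434.9, 411.5 and 367.4 in TIMP2-/- UUO kidneys, against 150.3, 151.5 and 179.9 in TIMP2-/- sham kidneys. It had 398.9, 244.4 and 419.3 in TIMP3-/- UUO kidneys, against 116.3, 184.6 and 159.6 in TIMP3-/- sham kidneys, and 390.3, 349.8 and 302.0 in WT UUO kidneys, against 132.0, 148.3 and 101.2 in WT sham kidneys. The groups did not overlap, and TIMP3-/- UUO 2 was the lowest UUO array. The rises were 1.33 ± 0.21, 1.19 ± 0.21 and 1.46 ± 0.21 (adjusted p = 0.000347, 0.000287 and 0.000113), in the direction opposite to that of its ligand Cd40lg.

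Tnfrsf18, a costimulatory receptor of regulatory T cells, had 125.1, 134.8 and 139.8 in TIMP2-/- UUO kidneys, against 63.5, 77.0 and 102.0 in TIMP2-/- sham kidneys, a rise of 0.75 ± 0.24 (adjusted p = 0.0246). That call was lost without TIMP2-/- UUO 1, TIMP2-/- UUO 2, TIMP2-/- sham 1 or TIMP2-/- sham 2. Its differences of 0.43 ± 0.24 in TIMP3-/- and 0.45 ± 0.24 in WT kidneys did not pass, and the responses were not called different. Its direct neighbour Tnfrsf4, a costimulatory receptor of activated T cells, passed in no genotype (-0.14, -0.09 and -0.10). Tnfrsf8, the neighbour of Tnfrsf1b, passed as lower in TIMP3-/- and WT kidneys (-0.61 ± 0.18 and -0.56 ± 0.18), a call lost without TIMP3-/- sham 3 in TIMP3-/- kidneys and without any of 5 arrays in WT kidneys. Tnfrsf19 passed as lower in TIMP3-/- kidneys (-0.44 ± 0.17), with 1 of its 3 probe sets at 0.44 there, and that call was lost without any of 4 arrays. Ltbr, Tnfrsf9, Tnfrsf11a, Tnfrsf14 and Cd27 passed in no genotype. Ltbr and Tnfrsf9 are the receptors of Ltb and Tnfsf9, 2 ligands that rose.

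Of the 3 decoy receptors, 1 was called. Tnfrsf11b, which encodes osteoprotegerin and binds the ligands RANKL and TRAIL, had 30.7, 30.0 and 48.8 in TIMP2-/- UUO kidneys, against 54.6, 52.9 and 56.4 in TIMP2-/- sham kidneys. TIMP3-/- UUO kidneys had 33.0, 27.7 and 36.0, against 31.9, 45.4 and 46.2 in TIMP3-/- sham kidneys, and WT UUO kidneys had 32.5, 26.7 and 26.8, against 55.3, 48.9 and 40.2 in WT sham kidneys. The differences were -0.62 ± 0.20 in TIMP2-/-, -0.34 ± 0.20 in TIMP3-/- and -0.74 ± 0.20 in WT kidneys (adjusted p = 0.0231, 0.136 and 0.00926), so TIMP3-/- kidneys, where the groups overlapped, did not pass. In TIMP2-/- kidneys the call was lost without TIMP2-/- UUO 1, TIMP2-/- UUO 2, TIMP2-/- sham 1 or TIMP2-/- sham 3. With the mean of both probe sets neither call held (-0.23, adjusted p = 0.347, in TIMP2-/- and -0.18, 0.481, in WT kidneys). A dimmer probe set rose by 1.46 in TIMP3-/- kidneys through arrays TIMP3-/- UUO 1 and 2 (45.78 and 47.85, against 12.36 on array 3). Tnfrsf22 and Tnfrsf23, mouse decoy receptors for TRAIL that lie side by side, passed in no genotype. For Tnfrsf22 this holds for the brightest of 3 probe sets. Another passed as higher in TIMP3-/- (0.43) and WT kidneys (0.65), and the remaining one as lower in TIMP2-/- kidneys (-0.44).

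The genotype comparisons ask whether loss of either inhibitor altered the family. No member was called in any of the 8. Between TIMP2-/- UUO and WT UUO, 0.0242% of all genes were called, and between TIMP3-/- UUO and WT UUO, 0.395%. Between TIMP2-/- UUO and TIMP3-/- UUO it was 8.08%, and in the sham comparisons of TIMP2-/- and TIMP3-/- with WT it was 0.00807% and 0.0161%. For the differences between UUO responses it was 0.0% for each knockout against WT and 0.00807% between the knockouts.

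At an unadjusted p under 0.05 the limma fit had 2 members between TIMP2-/- UUO and WT UUO (3.32% of all genes), 2 between TIMP3-/- UUO and WT UUO (20.6%) and 3 between the obstructed knockouts (31.5%). It had 4 between TIMP2-/- sham and WT sham (27.8%) and 2 between TIMP3-/- sham and WT sham (10.4%). It had 1 for each knockout's response against WT (9.56% and 26.7%) and 2 between the knockouts' responses (10.7%). A fit without the empirical Bayes step had the same counts but for 1 in the last.

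The 95% intervals show what the arrays allow. For TIMP2-/- UUO minus WT UUO they reached from -0.73 (Tnfsf9) to 0.86 (Tnfrsf18) over the 39 members, and for TIMP3-/- UUO minus WT UUO from -0.63 (Edar) to 1.14 (Tnfrsf13b). Tnfrsf12a differed by 0.08 (-0.37 to 0.52) between TIMP2-/- UUO and WT UUO and by -0.02 (-0.46 to 0.43) between TIMP3-/- UUO and WT UUO. For Tnfrsf1a the values were -0.12 (-0.54 to 0.29) and -0.01 (-0.43 to 0.41), and for Tnf 0.13 (-0.13 to 0.40) and -0.12 (-0.39 to 0.15).

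The smallest p-value after UUO against WT was that of Tnfrsf13b. TIMP3-/- UUO arrays, at 177.5 to 296.0, lay above WT UUO arrays, at 112.6 to 167.7, by 0.68 ± 0.22 (95% interval 0.22 to 1.14, adjusted p = 0.138). The call depends on the arrays used: without WT UUO 2 the difference was 0.81 (adjusted p = 0.0401), without the 3 arrays that stood apart 0.98 (0.0491), and over all alternatives the adjusted p ran from 0.0401 to 0.592. Between the obstructed knockouts Tnfsf13b, the ligand of this receptor, differed by -0.56 ± 0.19 in TIMP2-/- minus TIMP3-/- (adjusted p = 0.0705, 0.0557 to 0.252 over the alternatives), with TIMP2-/- UUO arrays at 223.1 to 302.9 below TIMP3-/- UUO arrays at 344.9 to 401.4. Tnfsf8, a ligand of activated T cells, had unadjusted p-values of 0.0395 and 0.0217 in the TIMP2-/- and TIMP3-/- comparisons with WT UUO, which share the WT arrays (0.34 and 0.39).

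**Figure D5:**
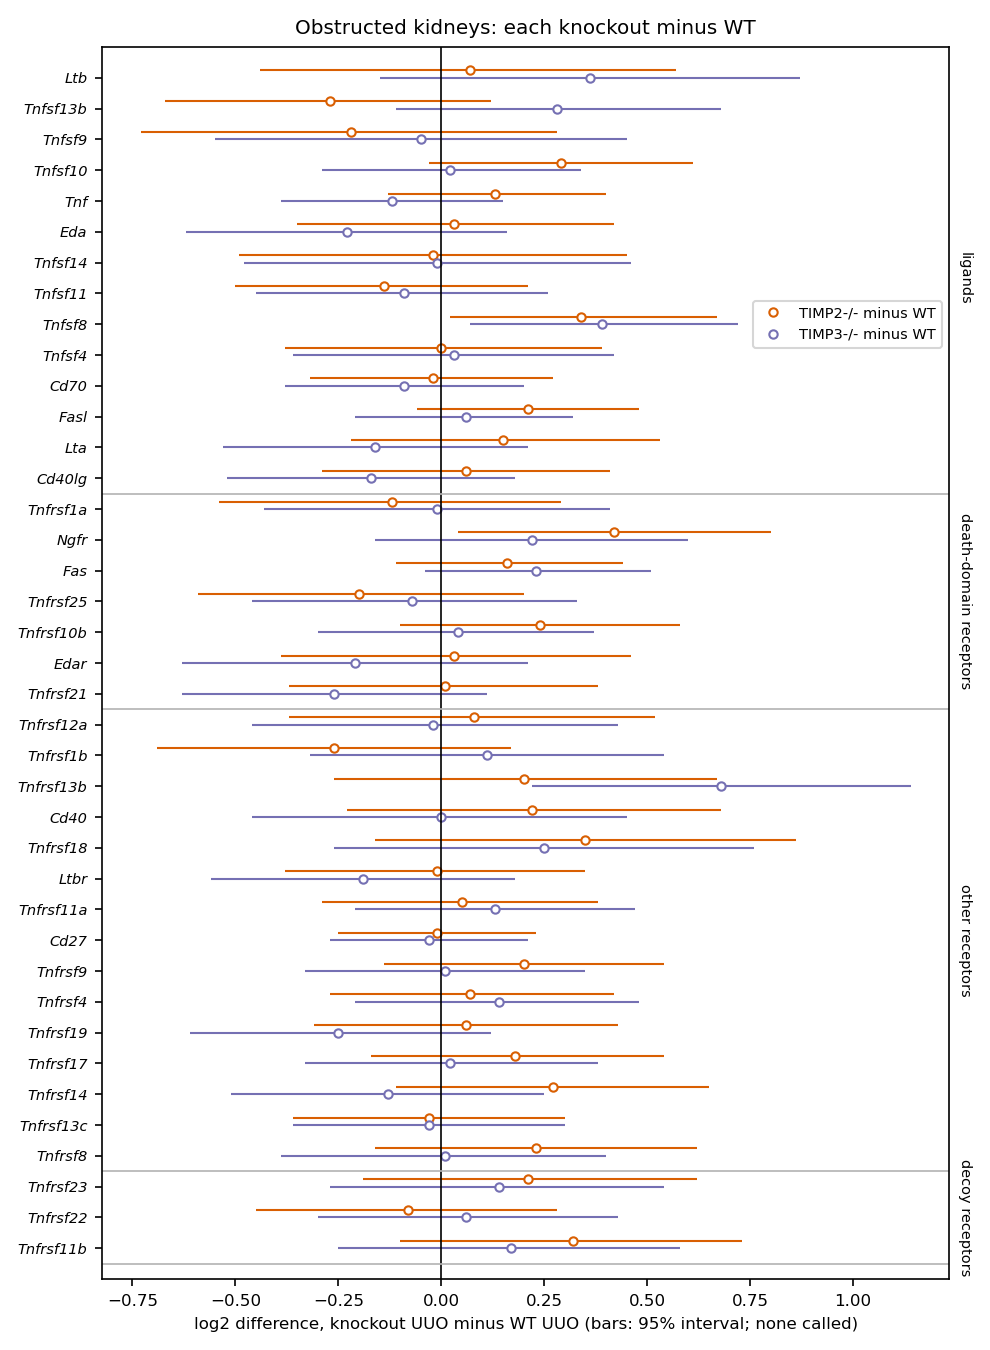
Log2 difference between obstructed kidneys (TIMP2-/- UUO minus WT UUO and TIMP3-/- UUO minus WT UUO, x axis) of each of the 39 genes, with 95% intervals, grouped by role; none passed after adjustment. The interval of Tnfrsf13b in TIMP3-/- UUO minus WT UUO, 0.22 to 1.14, lies farthest above 0.

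Genes that carry the receptors' signal were taken from a list of 36 adaptors, kinases, ubiquitin ligases and NF-κB proteins, of which 29 were measured. In TIMP2-/- kidneys 11 rose and 0 fell, in TIMP3-/- kidneys 15 rose and 4 fell, and in WT kidneys 10 rose and 2 fell, with median differences of 0.42, 0.34 and 0.29. These are 37.9%, 65.5% and 41.4% of the list, beside 37.9%, 64.6% and 33.0% of all genes. The share called in either direction was thus near the background. Of the 29 genes, 11, 15 and 10 rose in TIMP2-/-, TIMP3-/- and WT kidneys, where 15.9%, 25.7% and 16.8% of all genes rose. In the same order 0, 4 and 2 fell, where 22.0%, 38.8% and 16.2% of all genes fell. In each genotype the share that rose lay above that of all genes, and the share that fell lay below it. Relb, the NF-κB subunit of the noncanonical arm, had 694.3, 646.1 and 692.1 in TIMP2-/- UUO kidneys, against 163.2, 169.7 and 247.4 in TIMP2-/- sham kidneys. It rose by 1.83 ± 0.21, 1.81 ± 0.21 and 2.21 ± 0.21 in TIMP2-/-, TIMP3-/- and WT kidneys (adjusted p = 1.38e-05, 6.11e-06 and 1.71e-06). Birc3, a ubiquitin ligase that holds back cell death at TNFR1 and is itself an NF-κB target, rose by 2.23 ± 0.18, 2.25 ± 0.18 and 1.84 ± 0.18 (adjusted p = 8.61e-07, 4.65e-07 and 2.75e-06). With suffixed probe sets left out, another probe set gave Birc3 0.25 in TIMP2-/- (adjusted p = 0.268), 1.04 in TIMP3-/- (still called) and -0.07 in WT kidneys (0.775). Its close relative Birc2 rose by 1.70 ± 0.36 in TIMP2-/- and 2.18 ± 0.36 in TIMP3-/- kidneys, and its WT difference of 0.64 ± 0.36 did not pass.

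Ripk3, the kinase of necroptosis, rose by 1.50 ± 0.36, 2.07 ± 0.36 and 1.56 ± 0.36 in TIMP2-/-, TIMP3-/- and WT kidneys, with the highest intensity, 791.5, on TIMP3-/- UUO 1. Traf1, an adaptor of TNFR2 and an NF-κB target, rose by 1.45 ± 0.13, 1.34 ± 0.13 and 1.43 ± 0.13. Cflar, the caspase-8 inhibitor cFLIP, differed by -0.07 ± 0.20 in TIMP2-/- and -0.40 ± 0.20 in TIMP3-/- kidneys, which did not pass, and fell by 0.95 ± 0.20 in WT kidneys (adjusted p = 0.00222). The Cflar call was lost with the mean of its probe sets (-0.40, adjusted p = 0.228) and without the 3 arrays that stood apart (-0.67, 0.0591). Map3k5, a stress kinase downstream of TNFR1, fell by 0.58 ± 0.16 in WT kidneys and was called in neither knockout. In TIMP3-/- kidneys Traf4 fell by 0.71 ± 0.21, Fadd, the adaptor that brings caspase-8 to death domains, by 0.70 ± 0.17, Tab1 by 0.59 ± 0.18 and Sharpin by 0.57 ± 0.17. None of these 4 genes was called in TIMP2-/- or WT kidneys. No gene of the signalling list was called in any difference between UUO responses, so its calls do not set the genotypes apart. The calls of Traf4 and Tab1 were lost without TIMP3-/- UUO 2, that of Tab1 also without TIMP3-/- sham 2, and that of Traf4 without the 3 arrays that stood apart (-0.49, adjusted p = 0.0535), and the Traf4 values of TIMP3-/- UUO and sham kidneys overlapped.

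Casp8, the initiator caspase of death receptors, was the 1 gene of the signalling list called between TIMP3-/- UUO and WT UUO. It had 1474, 1387 and 1118 in TIMP3-/- UUO kidneys, against 628.7, 968.2 and 711.0 in WT UUO kidneys, a difference of 0.80 ± 0.16 (adjusted p = 0.0491). The call was lost in 9 of 17 alternatives, among them without TIMP3-/- UUO 1 or 2 and without WT UUO 1 or 3, with adjusted p from 0.00484 to 0.523.

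Adam17, the TNF sheddase, had 411.0, 509.2 and 295.9 in TIMP2-/- UUO kidneys, against 169.3, 172.7 and 137.1 in TIMP2-/- sham kidneys. It had 825.0, 989.1 and 589.0 in TIMP3-/- UUO kidneys, against 250.1, 116.5 and 154.1 in TIMP3-/- sham kidneys. WT UUO kidneys had 448.5, 626.7 and 283.2, against 194.9, 246.9 and 357.8 in WT sham kidneys, and only the WT groups overlapped. It rose by 1.32 ± 0.33 in TIMP2-/- and 2.25 ± 0.33 in TIMP3-/- kidneys (adjusted p = 0.00711 and 5.1e-05), and the WT difference of 0.74 ± 0.33 did not pass (adjusted p = 0.0974). Between TIMP3-/- UUO and WT UUO the difference was 0.86 ± 0.33 (adjusted p = 0.179), which passed without WT UUO 2 (1.14, adjusted p = 0.0456) and not without the 3 arrays that stood apart (0.97, 0.119).

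Adam10, a related sheddase, rose by 2.88 ± 0.68 in TIMP3-/- kidneys, with 1784, 4224 and 792.2 in TIMP3-/- UUO, against 529.3, 188.3 and 148.8 in TIMP3-/- sham. Its highest value was on TIMP3-/- UUO 2, and WT sham 3 had 1299, where WT sham 1 and 2 had 424.5 and 541.7. Adam10 was called in neither TIMP2-/- nor WT kidneys. Neither Adam10 nor Adam17 was called in any difference between UUO responses. Timp3 itself differed by -0.09 ± 0.21 with obstruction in TIMP2-/- kidneys, which did not pass, and fell by 0.61 ± 0.21 in WT kidneys (adjusted p = 0.0325). That Timp3 call was lost without WT UUO 2, WT UUO 3, WT sham 2 or WT sham 3, with quantile normalization repeated, and without the 3 arrays that stood apart (-0.50, adjusted p = 0.188). A transcript level says nothing of the protease's activity or of receptor shed from the cell.

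Macrophage and monocyte markers were higher in the same comparisons as the members that rose. All 13 measured macrophage and monocyte markers rose in each genotype, where 15.9%, 25.7% and 16.8% of all genes rose in TIMP2-/-, TIMP3-/- and WT kidneys. The 13 markers had medians of 2.63 in TIMP2-/-, 2.93 in TIMP3-/- and 3.21 in WT kidneys. Their summed intensity was 49785 to 50401 in TIMP2-/- UUO, 62143 to 91771 in TIMP3-/- UUO and 41112 to 76392 in WT UUO, against 9054 to 11047 in TIMP2-/- sham, 9066 to 11593 in TIMP3-/- sham and 5953 to 8687 in WT sham. Their part in the rises of Tnfrsf1b, Ltb, Tnfsf13b, Tnfrsf13b, Cd40 and Tnfrsf12a was not tested, and in whole kidney fewer cells of a type and less RNA per cell cannot be told apart. Tubule and podocyte markers fell, 5 of 7 in TIMP2-/-, 6 in TIMP3-/- and 4 in WT kidneys, and none rose. Of all genes, 22.0%, 38.8% and 16.2% fell in the same order of genotypes.

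Lymphocyte markers went both ways. Of 9 T cell markers, 3 rose and 1 fell in TIMP2-/-, 2 rose and 3 fell in TIMP3-/-, and 3 rose and 0 fell in WT kidneys, where Cd40lg, a T cell ligand, was lower. These are 44.4%, 55.6% and 33.3% of the list, beside 37.9%, 64.6% and 33.0% of all genes called, so near the background. The summed intensity of the 9 markers was 1843 to 2019 in TIMP2-/- UUO, 2413 to 4378 in TIMP3-/- UUO and 1486 to 3161 in WT UUO, against 893 to 1045, 877 to 1112 and 798 to 863 in the sham groups of the same genotypes. Thy1, which stromal cells also express, ran from 702 to 3383 on the UUO arrays and from 73.2 to 113 on the sham arrays. The other 8 markers summed to 886 to 1069 in TIMP2-/- UUO, 661 to 1113 in TIMP3-/- UUO and 708 to 1016 in WT UUO, against 780 to 952, 779 to 1009 and 724 to 760 in the sham groups, and the ranges overlapped within each genotype. Thy1 and Cd3g rose in all 3 genotypes, and Cd3d rose in TIMP2-/- and WT kidneys. Cd8a fell in both knockouts, and Cd3e and Cd4 in TIMP3-/- kidneys. Of 6 B cell markers, 1 rose in each genotype, while 1 fell in TIMP2-/-, 3 in TIMP3-/- and 2 in WT kidneys. Those called were 33.3%, 66.7% and 50.0% of the list, beside the same 37.9%, 64.6% and 33.0% of all genes. The sum of the 6 B cell markers was 477 to 565 in TIMP2-/- UUO, 409 to 618 in TIMP3-/- UUO and 469 to 497 in WT UUO, against 430 to 521, 440 to 521 and 405 to 443 in the sham groups. The part of these cells in the values of Tnfrsf13b, Tnfrsf13c, Tnfrsf17 and Cd40lg was not tested.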

How the data were processed

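Kidney RNA of 6 groups of 3 arrays was analysed, with groups taken from the labels. The deposited values were intensities on a linear scale, 1 per probe set and array, and RMA is credited per the submitters' processing notes; its version and the step to linear values are not given in the sources used here. Array medians lay between 201.8 and 247.9, which hides any change common to all transcripts. Of 22690 probe sets, 64 were controls, 20380 had 1 gene symbol, and 691 with several and 1555 with none named no gene. The log2 of each intensity, with nothing added, was fitted as 6 group means in limma 3.58.1 (R 4.3.3; 12 residual and 3.35 prior degrees of freedom), which was tested on simulated data. All 39 members matched the RefSeq gene table with no change of symbol.

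The members, gene lists, markers and tests were chosen with earlier results of these data known. The rule named Tnf, the TNF receptors and all death-domain receptors, up to 8 rises and 8 falls per comparison among called members without overlap, and from the signalling and shedding lists Adam17, Timp3 and up to 4 rises and 4 falls per comparison; further members are named so that all 39 are accounted for. The labels give no pairing by replicate number, and the main fit used none. Of 45 same-numbered pairs, 24 had deviations correlated above 0.1 (median 0.132, range -0.613 to 0.673), where differently numbered pairs had a median of -0.105. For 6 of 18 arrays the best correlate had the same number. These values do not settle whether arrays of the same number share structure. Alternatives changed the probe set rule, filter, scaling, arrays, replicate block and empirical Bayes step. The number of arrays, 3 per group, limits the precision.

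Of marker lists not described in the results, the 5 measured NK cell markers were higher for 2 in each genotype and lower for 0, 1 and 0 in TIMP2-/-, TIMP3-/- and WT kidneys. Of 5 measured dendritic cell markers 3 were higher in each genotype. For all these lists, the share of all genes called, higher and lower together, was 37.9%, 64.6% and 33.0% in TIMP2-/-, TIMP3-/- and WT kidneys. By direction, 15.9%, 25.7% and 16.8% of all genes were higher and 22.0%, 38.8% and 16.2% lower. Neutrophil markers (6) were higher in 0, 2 and 2 and lower in 2, 4 and 1, endothelial markers (6) higher in 0, 2 and 2 and lower in 1, 0 and 0, hepatocyte markers (9) higher in 3, 1 and 3 and lower in 1, 1 and 0, and adipocyte markers (5) higher in 1, 4 and 4 and lower in none, in the same order of genotypes.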

Additional observations from a re-analysis of the deposited data

How the results depend on the processing

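The counts of called members kept within 1.5 times their value except as given here. For TIMP2-/- UUO against sham the count of 16 was 10 with dim genes left out (9 higher, 1 lower, of 26 members tested), and leaving out 1 array at a time gave 8 to 19, with 9 without TIMP2-/- UUO 1 and 8 without TIMP2-/- UUO 2. Leaving out 1 array gave 14 to 21 for TIMP3-/- and 10 to 15 for WT. For TIMP3-/- UUO against WT UUO it gave 0 to 1, with 1 (Tnfrsf13b) without WT UUO 2, and 1 also without the 3 arrays that stood apart. In the other genotype comparisons it gave 0. The share of all genes called with fewer arrays is not given here, so these counts are not set against a background. The replicate block gave 16, 20 and 15 members in TIMP2-/-, TIMP3-/- and WT kidneys and 0 in every genotype comparison, so it moved no count by over 1.5 times. Centring each array on its median moved the median of all genes to -0.27, -0.42 and -0.22 in TIMP2-/-, TIMP3-/- and WT kidneys and gave 7 higher and 10 lower, 7 and 18, and 8 and 7 members. A repeated quantile normalization gave 10 and 3, 9 and 6, and 8 and 3. The counts over all genes under these 2 scalings also moved and are given in the results above. With suffixed probe sets left out, 36 members were tested (not Cd40, whose probe sets all carry a suffix), and Fasl in TIMP2-/- was 0.12, Tnfrsf19 in TIMP3-/- 0.44 and Birc3 in WT -0.07; with the mean of a gene's probe sets Ngfr in TIMP3-/- was -0.26. Another probe set stood for Fasl, Tnfrsf19 and Birc3 there. Beside left-out arrays, these settings ended calls of named genes. The mean of probe sets ended Fasl, Tnfsf11 and Tnfrsf10b in TIMP2-/-, Tnfrsf19 in TIMP3-/-, Cflar in WT, Tnfrsf11b in TIMP2-/- and WT, and Ngfr in all 3. Suffixed probe sets left out ended Fasl, Tnfsf11 and Birc3 in TIMP2-/-, Tnfrsf19 in TIMP3-/- and Birc3 in WT. A fit of only the arrays compared ended Tnf, Tnfsf9, Tnfrsf10b, Tnfrsf13c, Tnfrsf19, Traf4, Tab1 and Casp8 in TIMP3-/- and Edar, Ngfr and Tnfrsf13c in WT. Repeated quantile normalization ended Cd70, Fasl, Tnfsf11 and Tnfrsf10b in TIMP2-/-, Lta, Ngfr, Tnfrsf10b, Tnfrsf13c and Tnfrsf19 in TIMP3-/-, and Edar, Ngfr, Tnfrsf13c, Tnfrsf8 and Timp3 in WT. Median centring ended Tnfrsf1a and Tnfrsf18 in TIMP2-/-, Ngfr, Tnfsf9 and Casp8 in TIMP3-/- and Ngfr in WT. A pseudocount of 32 ended Fasl and Tnfsf11 in TIMP2-/-, Lta and Tnfrsf13c in TIMP3-/- and Tnfrsf13c in WT. Ltb, Tnfsf13b, Tnfrsf12a, Tnfrsf1b, Tnfrsf13b and Cd40 passed as higher in all 3 genotypes under every alternative in which they were tested. The dimmer probe set of Tnfrsf1b alone was not among these alternatives. It gave -0.41, -0.55 and -0.34 in TIMP2-/-, TIMP3-/- and WT kidneys and passed as lower in TIMP3-/- kidneys. The test of every probe set on its own, adjusted over all 22626 probe sets, was added after the data were seen. Counting only the probe set that stood for each member, it gave 16, 19 and 15. These counts leave out the members' other probe sets, some of which went the other way, as given above. Signal over background limits the 13 dim members.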
